A study of Homo sapiens with 60 samples.

Results

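The 10 genes described here encode the switch that moves a cell from G1 into S phase: the D-type cyclins CCND1 and CCND3, the E-type cyclins CCNE1 and CCNE2, the cyclin-dependent kinases CDK2, CDK4 and CDK6, the kinase inhibitor CDKN1B (p27), and the transcription factors E2F1 and MYC. They were picked by name from the 60675 genes of a count table, with earlier results of these data known, and all 10 passed the filter on low counts that left 17368 genes for testing. The data are RNA-seq libraries of A549, a human non-small cell lung carcinoma line, exposed for 24 h. Each of 20 groups held 3 libraries, 60 in all. The Vehicle group received DMSO, at 0.1% by the sample labels and at 2% by the series' design text, and the positive control received wortmannin, an inhibitor of phosphoinositide 3-kinases, at 10 µM. The other 18 groups received a water extract of Liriopis seu Ophiopogonis Tuber, Schisandrae Fructus, Longan Arillus, Zizyphi Semen, Polygalae Radix or Aucklandiae Radix, called below by the first word, at 500, 100 or 20 µg/mL. A group such as Polygalae 500 is named by extract and dose. No label of a treated group gives DMSO, and the design text adds that extracts toxic below the top dose were given at a lower concentration and its dilutions, so a labelled dose may not be the dose applied.

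D-type cyclins rise with growth signals and activate CDK4 and CDK6, which phosphorylate the RB protein and release E2F transcription factors. E2F1 and its relatives then switch on CCNE1, CCNE2 and the genes of DNA replication, and cyclin E with CDK2 completes RB phosphorylation, while p27 holds cyclin-CDK complexes in check. MYC drives genes of growth, ribosome assembly and nucleotide synthesis, and CDK4 is among its known targets. Signalling through phosphoinositide 3-kinase and AKT is known to restrain FOXO factors, which activate CDKN1B.

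Library totals ran from 17.7 to 30.6 M expected counts (median 24.6 M). Levels are given as CPM, counts scaled to one common library total after adjustment by TMM factors, and levels of different genes are compared only per kilobase of merged exons. The epithelial keratins KRT8 and KRT18 had median levels of 3660 and 2787 CPM, and the 5 epithelial markers together ran from 5207 to 7370 CPM across libraries. Summed markers reached at most 34.7 CPM for fibroblasts (nearly all COL1A1), 0.413 CPM for endothelium and 1.70 CPM for blood. Library names fall into 5 sets by their first part: Vehicle (A1), Wortmannin (1), Schisandrae with Liriopis (2), Zizyphi with Longan (3) and Aucklandiae with Polygalae (4). So in every comparison with Vehicle the treatment and the set cannot be told apart. Comparisons of extracts within a set, and slopes over dose within an extract, do not cross sets. All 3 Polygalae 20 libraries correlated less with their group than other libraries did. That value is a mean over the group mates of a library, so 1 deviating library lowers the others too. Polygalae 20 replicate 1 carried the strongest trend over exon length, with short transcripts high and long ones low. Its Spearman rho across 17250 genes was -0.363, against -0.0511 to 0.0396 in Vehicle. Other libraries had trends as well. In Schisandrae 100 rho ran from -0.299 to -0.0531 and in Liriopis 100 from -0.212 to -0.0105. Under Wortmannin it ran from 0.0832 to 0.121 and in Aucklandiae 20 from 0.066 to 0.179, with long transcripts high. Nothing in the labels says that replicates were separate cultures, so p-values measure the spread between libraries, which may be technical.

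In Vehicle, CCND1 was the most abundant of the 10 at 92.1 ± 1.65 CPM per kilobase (SD, n = 3 here and below). CDK4 (50.2 ± 1.69), MYC (45.6 ± 0.748) and CCND3 (32.4 ± 0.630) followed on the same scale. CDK2 at 19.7 ± 0.526 and E2F1 at 19.2 ± 0.661 CPM per kilobase did not differ beyond their spread. CDKN1B at 11.7 ± 0.711, CDK6 at 10.8 ± 0.346 and CCNE1 at 10.3 ± 0.505 came next, each within the spread of its neighbour in this order, while CDKN1B and CCNE1 did not overlap. CCNE2 was the lowest at 1.91 ± 0.167 CPM per kilobase, and its smallest value in any library was an expected count of 103. CDK4 RNA stood 4.66 ± 0.271 times as high as CDK6 RNA per kilobase.

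Calls among the 10 genes came from a minority of the treated groups. Each gene was tested against Vehicle in 19 treated groups with edgeR's quasi-likelihood test, and a gene was called at a Benjamini-Hochberg adjusted p under 0.05 over all 17368 genes. Of the 190 pairs of gene and group, 9 rose, 12 fell and 169 were not called. The calls lay in 6 groups: Wortmannin, Zizyphi 500, Aucklandiae 500 and the 3 Polygalae groups. Over all genes, 37.4% were called under Wortmannin, 1.81% in Zizyphi 500 and 4.94% in Aucklandiae 500. In Polygalae 500, 100 and 20 these shares were 19.9%, 12.8% and 12.1%. Elsewhere the share was at most 2.99%, in Aucklandiae 20, so most of the 6 groups also had many calls over all genes. Differences between group means ran over 0.618 log2 units for CCNE2, 0.597 for CCND3 and 0.558 for CDK4, and over only 0.116 for CDK2, where the median over all tested genes was 0.415. For CCNE2 the pooled SD within groups, 0.148, was above the SD of its 20 group means, 0.133. The same held for CDK6 (0.0791 and 0.0595), E2F1 (0.0683 and 0.0463) and CDK2 (0.0428 and 0.0301). In the other genes the pooled SD within groups was the smaller, at 0.0391 beside 0.133 for CCND3 and 0.0715 beside 0.122 for CDK4.

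**Figure D1:**
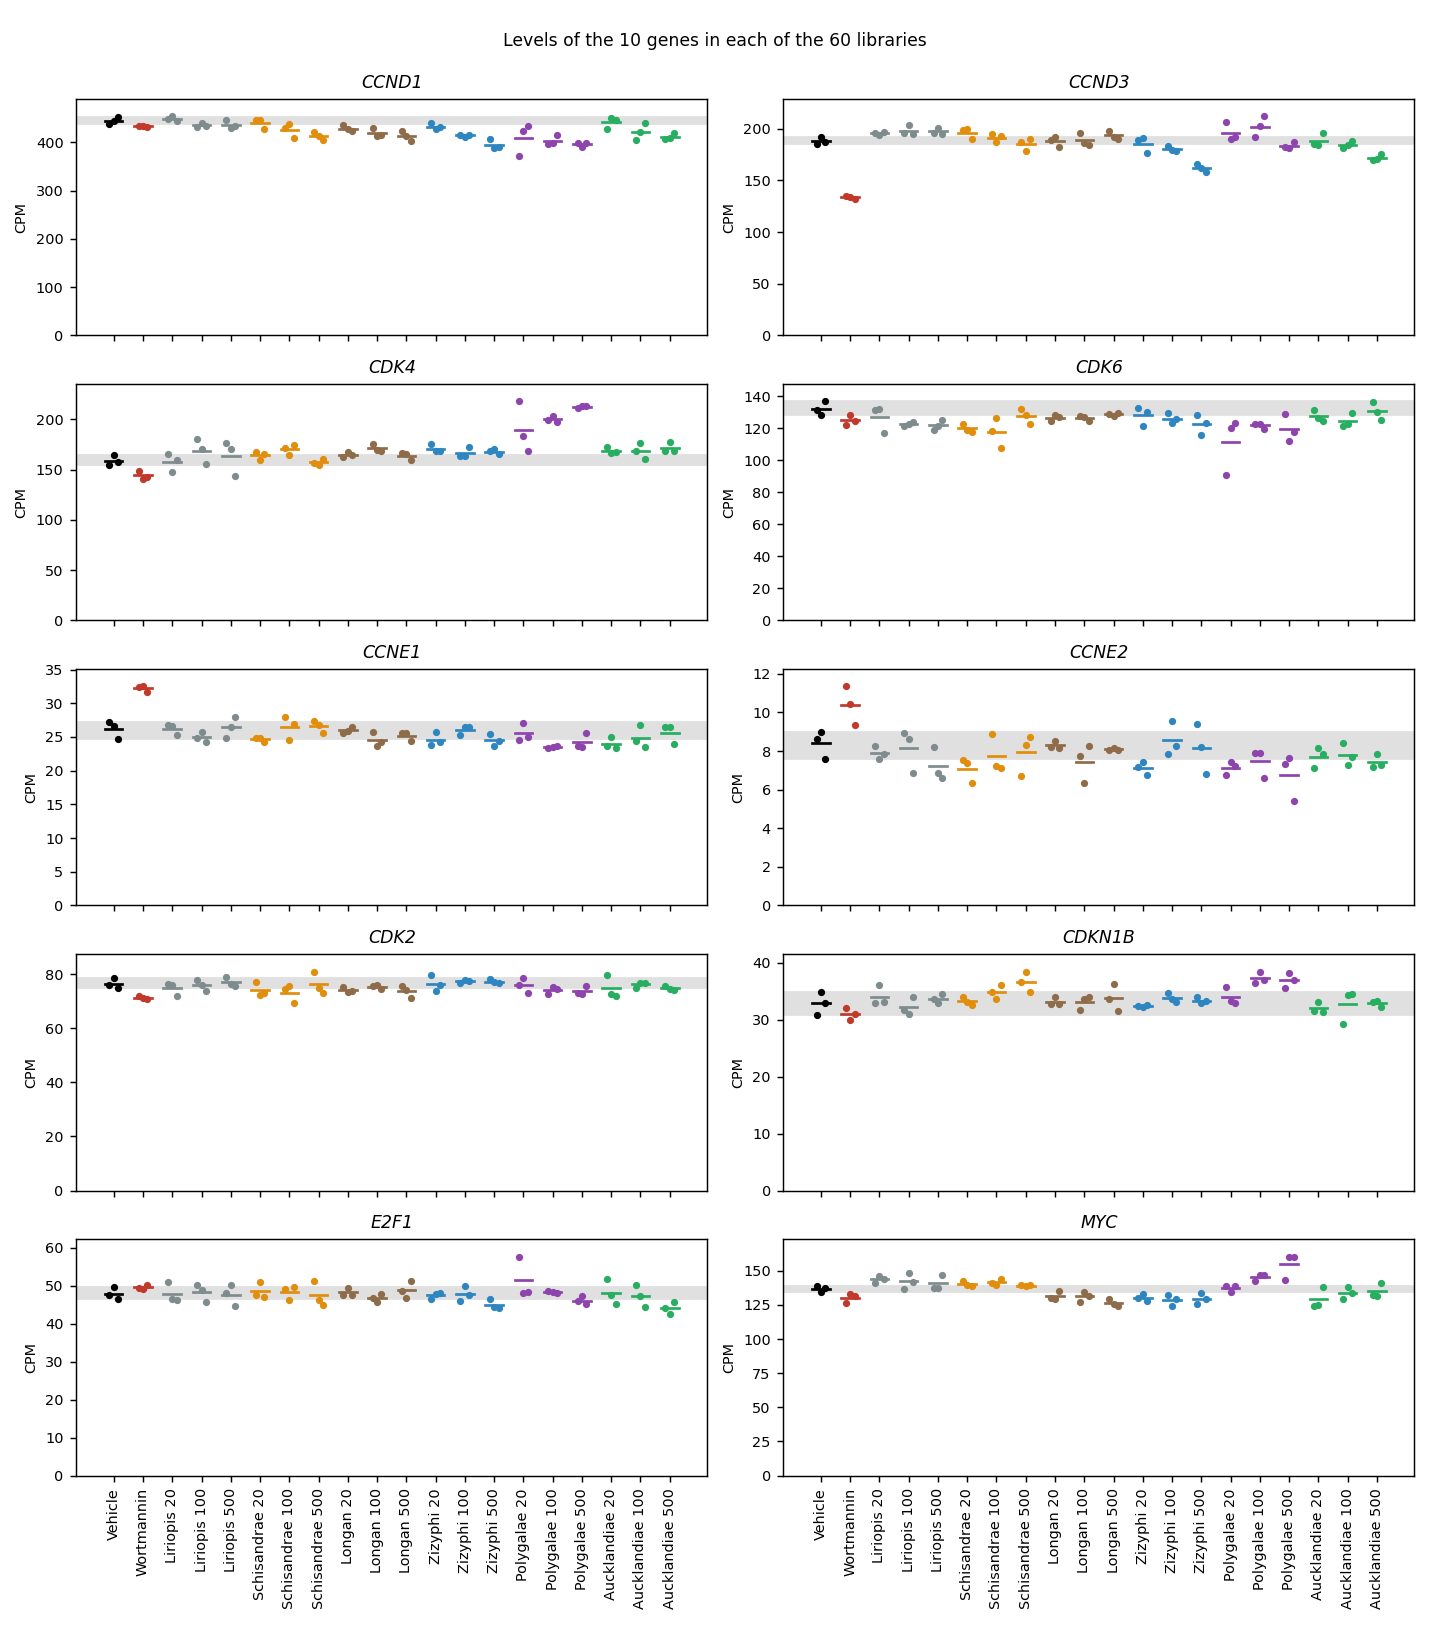
Level of each of the 10 genes in CPM (y axis, from 0) in each of the 20 groups (x axis); points are libraries, short lines are group means of 3, and the grey band is the range of the 3 Vehicle libraries. CCND3 falls to between 132 and 135 CPM under Wortmannin, CCNE1 and CCNE2 are highest there, and CDK4 is highest in the Polygalae groups.

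**Figure D2:**
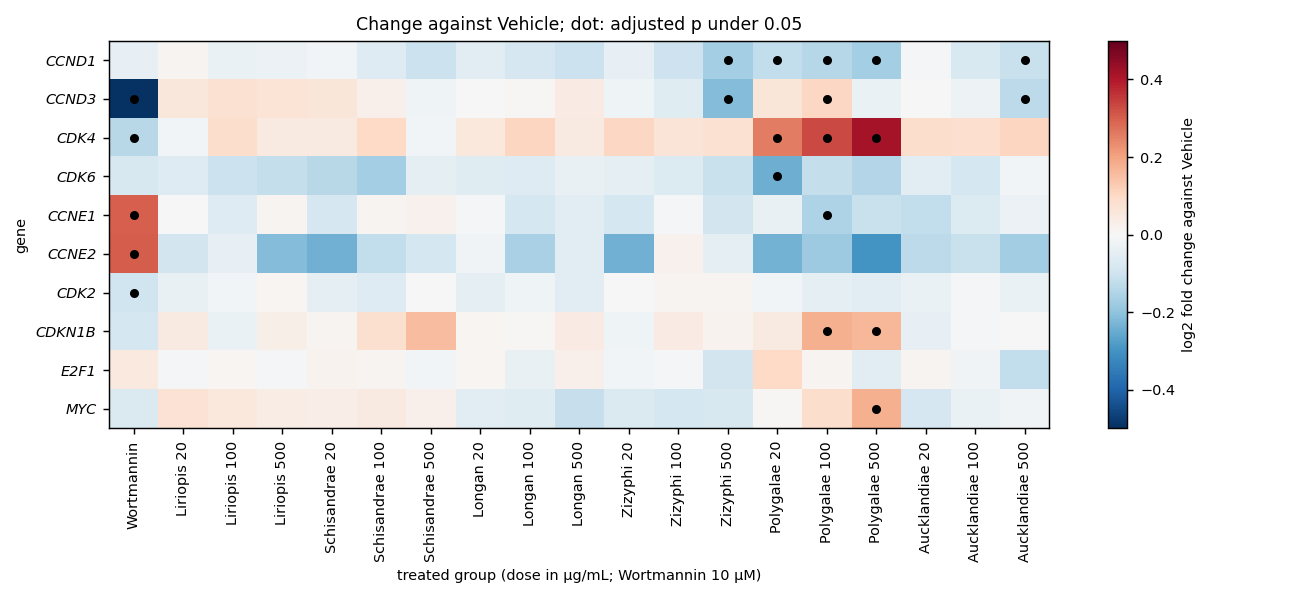
Log2 fold change against Vehicle (colour, from -0.5 to 0.5) of each gene (rows) in each of the 19 treated groups (columns); a black dot marks an adjusted p under 0.05 in edgeR's test. The 21 dots lie in the Wortmannin, Zizyphi 500, Polygalae and Aucklandiae 500 columns.

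Wortmannin called 5 of the 10 genes, 2 up and 3 down, where 37.4% of all tested genes were called (3121 rose, 3377 fell), so that share is near the background. CCND3 and the E-type cyclins moved in opposite directions. CCND3, a D-type cyclin that activates CDK4 and CDK6, fell, CCNE1 and CCNE2, the cyclins that activate CDK2, rose, and CDK4 and CDK2 fell by less. Its main D-type relative CCND1 was not called, at 435, 433 and 431 CPM against 437, 444 and 453 CPM in Vehicle (log2 fold change -0.040 ± 0.034, SE, adjusted p = 0.382).

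CCND3 stood at 185, 192 and 187 CPM in the 3 Vehicle libraries and at 135, 134 and 132 CPM in the 3 Wortmannin libraries. All Wortmannin values lay far below the lowest Vehicle value, and below every other library of the series. The log2 fold change was -0.49 ± 0.034 (adjusted p = 1.38e-18). The ratio of CCND3 to CCND1, per kilobase, was 0.352 ± 0.00850 in Vehicle and 0.257 ± 0.00212 under Wortmannin.

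CCNE1 rose from 27.2, 26.6 and 24.7 CPM in Vehicle to 32.4, 32.5 and 31.7 CPM under Wortmannin (log2 fold change 0.30 ± 0.048, adjusted p = 8.52e-07), with no overlap of the groups. CCNE2 went from 8.65, 8.99 and 7.59 CPM to 11.3, 10.4 and 9.34 CPM, also without overlap (0.30 ± 0.11, adjusted p = 0.0180). The call for CCNE2 was lost at 0.23 without Vehicle replicate 3 (adjusted p = 0.123) and at 0.23 without Wortmannin replicate 1 (adjusted p = 0.125).

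CDK4 fell from 154, 165 and 158 CPM in Vehicle to 149, 141 and 143 CPM under Wortmannin (log2 fold change -0.14 ± 0.056, adjusted p = 0.0416). CDK2, the partner of cyclin E, fell from 76.2, 78.8 and 74.8 CPM to 72.2, 71.1 and 71.0 CPM (-0.10 ± 0.037, adjusted p = 0.0248). Both are small drops in which every Wortmannin library lay below every Vehicle library. Over all tested genes, 51% did not overlap between Wortmannin and Vehicle. The call for CDK4 was lost without Vehicle replicate 2 (-0.11) or 3 (-0.15), or Wortmannin replicate 2 (-0.12) or 3 (-0.13), at adjusted p of 0.0707 to 0.166. That for CDK2 was lost without Vehicle replicate 2 (-0.080) or Wortmannin replicate 2 (-0.098) or 3 (-0.097), at adjusted p of 0.0634 to 0.137. The CDK2 call was also lost without the filter on low counts. Without Vehicle replicate 2 or 3, or without Wortmannin replicate 2 or 3, 3 of the 10 genes were called in place of 5.

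The remaining genes were not called under Wortmannin in the fit to all 60 libraries. CDKN1B stood at 32.1, 30.01 and 30.9 CPM against 30.9, 34.9 and 32.9 CPM in Vehicle, with overlapping groups and a 95% interval of the log2 fold change from -0.19 to 0.014. E2F1 stood at 49.5, 49.2 and 50.3 CPM against 47.7, 49.7 and 46.4 CPM (interval -0.054 to 0.15). MYC stood at 127, 133 and 131 CPM against 139, 134 and 137 CPM, every value below the lowest of Vehicle, with an interval from -0.15 to 0.0032. CDK6 had a log2 fold change of -0.081 ± 0.060 (adjusted p = 0.308). With each library's exon length trend removed it was -0.13 (adjusted p = 0.00650). With the libraries of the compared groups alone, CDK6 (-0.080, adjusted p = 0.0221) and MYC (-0.070, adjusted p = 0.0364) were both called.

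Of the 5 genes called under Wortmannin, CDK4, CCND3 and CCNE1 were also called in Polygalae groups, with the opposite sign, and Polygalae was not tested against Wortmannin. At 500 µg/mL, CDK4, CDKN1B and MYC rose and CCND1 fell, 4 of 10 where 19.9% of all genes were called. At 100 µg/mL, CDK4, CDKN1B and CCND3 rose and CCND1 and CCNE1 fell, 5 of 10 where 12.8% of all genes were called. Without Vehicle replicate 1 or Polygalae 100 replicate 2 that count was 2, and without Polygalae 100 replicate 3 or without the filter on low counts it was 3. At 20 µg/mL, CDK4 rose and CCND1 and CDK6 fell, 3 of 10 beside 12.1% of all genes (2107 genes, and 3 genes with the libraries of the compared groups alone). Of the 10 genes, 0 were called at 20 µg/mL without Polygalae 20 replicate 1, and 0 with the compared groups alone.

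CDK4, the catalytic partner of the D-type cyclins, stood at 211, 213 and 213 CPM in Polygalae 500. In Polygalae 100 it stood at 200, 203 and 197 CPM, and in Polygalae 20 at 218, 184 and 168 CPM. All 9 libraries lay above the highest Vehicle value of 165 CPM. Over all tested genes, 36.9% did not overlap with Vehicle in Polygalae 500, 31.9% in Polygalae 100 and 21.4% in Polygalae 20. The log2 fold changes of CDK4 against Vehicle were 0.42 ± 0.055 at 500 (adjusted p = 5.14e-08), 0.33 ± 0.055 at 100 (adjusted p = 1.26e-05) and 0.25 ± 0.055 at 20 µg/mL (adjusted p = 0.00165). The 3 libraries of Polygalae 20 were far apart, and the value of 218 CPM came from replicate 1, the library with the strongest exon length trend. Without that library the change at 20 µg/mL was 0.14 (adjusted p = 0.0962), and with the libraries of the compared groups alone it was 0.26 (adjusted p = 0.340). The exon length of CDK4 is 3168 bases and that of CDK6 is 12260 bases.

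CDK6 was lowest in that same library. It stood at 90.7, 120 and 124 CPM in Polygalae 20 against 132, 128 and 137 CPM in Vehicle (log2 fold change -0.24 ± 0.061, adjusted p = 0.00598). Without Polygalae 20 replicate 1 the change was -0.12 (adjusted p = 0.173), and in the compared groups alone it was -0.24 (adjusted p = 0.397). CDK6 was not called at 500 (-0.14 ± 0.061, adjusted p = 0.0901) or 100 µg/mL (-0.12 ± 0.061, adjusted p = 0.212). It was called at 500 µg/mL without Polygalae 500 replicate 1, at -0.20 (adjusted p = 0.0286). The call at 500 µg/mL was also made with the length trend removed (-0.14), in the compared groups alone (-0.15), without the filter (-0.16) and without the Polygalae 20 libraries (-0.14), at adjusted p of 0.00447 to 0.0205. At 100 µg/mL it was made in the compared groups alone (-0.12, adjusted p = 0.00550). Per kilobase, CDK4 RNA was 6.89 ± 0.517 times CDK6 RNA in Polygalae 500 and 6.36 ± 0.0632 times in Polygalae 100, above the 4.47 to 4.97 of the 3 Vehicle libraries. The mean ratio was above that of Vehicle in every treated group but Wortmannin (4.47 ± 0.229). It was 5.64 ± 0.613 in Schisandrae 100 and 5.13 ± 0.0559 in Aucklandiae 20, for example. Of the 20 groups, Vehicle had the highest mean of CDK6, whose log2 fold change was negative in 19 of 19 treated groups.

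**Figure D3:**
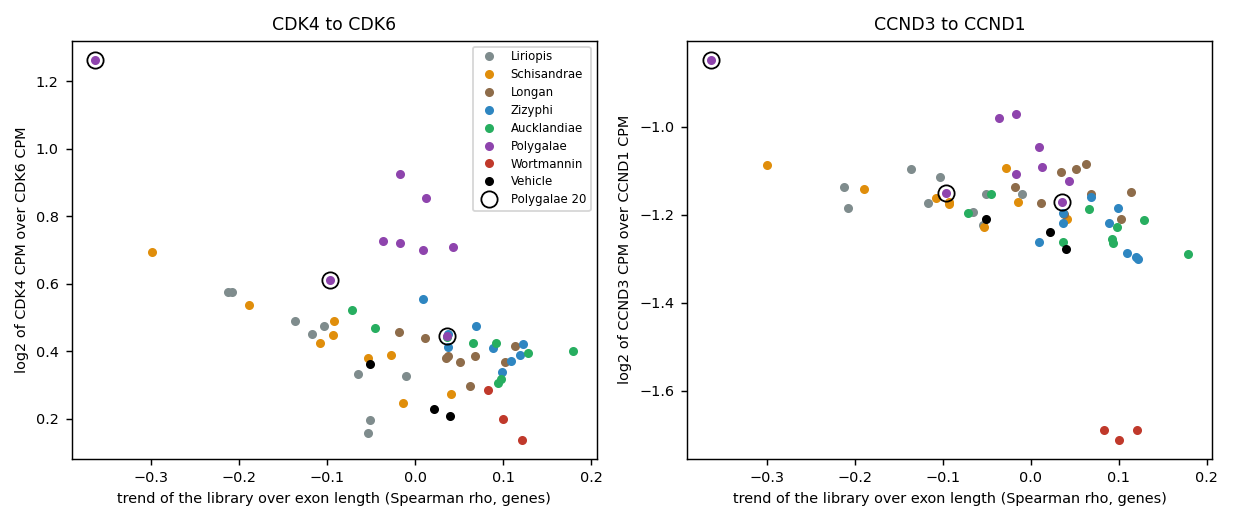
Log2 ratio of CDK4 to CDK6 CPM (left) and of CCND3 to CCND1 CPM (right) on the y axis against the trend of each library over exon length (Spearman rho across genes, x axis); each point is a library, coloured by treatment, and open circles mark Polygalae 20. The Polygalae 20 library at a rho of -0.363 has the highest value in both panels. The Polygalae 100 and 500 libraries, between -0.0365 and 0.0436, are also above Vehicle for CDK4 to CDK6, as are libraries of other extracts.

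CDK4 lies on chromosome 12 (chr12:57747727-57756013, minus strand, GRCh38 with GENCODE release 29), and the 250 bases before its RefSeq start in the GRCh38.p14 table, chr12:57752311-57752560, were searched for 5 motifs on both strands. They hold 3 matches to the E-box CACGTG, the word that MYC and MAX bind, at 216, 196 and 101 bases before the start. Of 35116 such windows, 6.34% hold at least 1 and 0.0797% hold at least 3. In the fit to all 60 libraries CDK4 was called at all 3 Polygalae doses and MYC at 500 µg/mL alone, and a link between them was not tested. The stretches are shown because CDK4 is a known MYC target, with the E-box in capitals, 5′ to 3′ on the gene's strand:
CDK4, chr12:57752501-57752530: cggtCACGTGtgatagcaacagatCACGTG
CDK4, chr12:57752394-57752423: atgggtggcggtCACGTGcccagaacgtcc
The first stretch overlaps annotated untranslated sequence of 1 GENCODE transcript and the second of 2, since some CDK4 transcripts start further upstream. A match describes the letters, not binding.

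MYC stood at 143, 160 and 160 CPM in Polygalae 500 against 139, 134 and 137 CPM in Vehicle. The lowest Polygalae 500 value lay above the highest of Vehicle (log2 fold change 0.18 ± 0.037, adjusted p = 0.000260). At 100 µg/mL it stood at 142, 147 and 147 CPM (0.088 ± 0.037, adjusted p = 0.119), and at 20 µg/mL at 139, 134 and 139 CPM (0.0050 ± 0.037). In no other treated group was MYC called in the fit to all 60 libraries, and the lowest fold change was -0.11 ± 0.038 in Longan 500 (adjusted p = 0.218). With the compared groups alone it was called in Polygalae 100 (0.085, adjusted p = 0.0441), Longan 500 (-0.11, adjusted p = 0.0170) and, as given above, Wortmannin.

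CDKN1B, which encodes p27, stood at 35.7, 38.2 and 37.0 CPM in Polygalae 500 and 36.5, 38.5 and 37.0 CPM in Polygalae 100, every value above the 30.9, 34.9 and 32.9 CPM of Vehicle. The log2 fold changes were 0.17 ± 0.050 (adjusted p = 0.0124) and 0.18 ± 0.050 (adjusted p = 0.00951). At 500 µg/mL the call was lost without Vehicle replicate 1 (0.12, adjusted p = 0.117) or Polygalae 500 replicate 2 (0.14, adjusted p = 0.0882), and also without the filter on low counts. At 100 µg/mL it was lost without Vehicle replicate 1 (0.14, adjusted p = 0.108) or Polygalae 100 replicate 2 (0.16, adjusted p = 0.0542). Schisandrae 500 had a similar value of 0.16 ± 0.049 that was not called (adjusted p = 0.163).

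CCND1 was the one gene that fell at all 3 Polygalae doses. It stood at 398, 391 and 398 CPM in Polygalae 500, at 396, 399 and 415 CPM in Polygalae 100 and at 371, 423 and 433 CPM in Polygalae 20, all below the lowest Vehicle value of 437 CPM. The log2 fold changes were -0.17 ± 0.034 (adjusted p = 0.000118), -0.14 ± 0.034 (adjusted p = 0.00218) and -0.12 ± 0.034 (adjusted p = 0.0125). The lowest of the 9 values again came from Polygalae 20 replicate 1, without which the change at 20 µg/mL was -0.056 (adjusted p = 0.339). That call was also lost without Vehicle replicate 3 (-0.11, adjusted p = 0.0656). The log2 fold change of CCND1 against Vehicle was negative in 18 of the 19 treated groups, all but Liriopis 20. CCND1 was not called between Polygalae 500 and Aucklandiae 500, where it stood at 407, 409 and 418 CPM.

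CCND3 rose and CCNE1 fell in Polygalae 100, and both calls were lost without single libraries and without the filter on low counts. CCND3 stood at 192, 203 and 212 CPM in Polygalae 100, the lowest of which overlapped the 185 to 192 CPM of Vehicle (log2 fold change 0.10 ± 0.033, adjusted p = 0.0276). The call was lost without Polygalae 100 replicate 2 (0.10) or 3 (0.068), or Vehicle replicate 1 (0.093) or 3 (0.100), at adjusted p of 0.0678 to 0.282. CCNE1 stood at 23.4, 23.5 and 23.7 CPM against 27.2, 26.6 and 24.7 CPM (-0.15 ± 0.051, adjusted p = 0.0373). That call was lost without any 1 of the 3 Polygalae 100 libraries (-0.16 to -0.15) and without Vehicle replicate 1 (-0.12) or 2 (-0.14), at adjusted p of 0.0807 to 0.178. CCNE1 was not called there in DESeq2 either. The change of CCNE1 at 500 µg/mL was -0.11 ± 0.052 (adjusted p = 0.133) and that of CCND3 at 20 µg/mL was 0.061 ± 0.034 (adjusted p = 0.246), and single doses were not tested against each other. CCNE2 was not called in any Polygalae group. At 500 µg/mL it stood at 7.32, 7.62 and 5.41 CPM against 8.65, 8.99 and 7.59 CPM (-0.30 ± 0.12, adjusted p = 0.0604), and it passed without Polygalae 500 replicate 2 (-0.39, adjusted p = 0.0320) or Vehicle replicate 3 (-0.37, adjusted p = 0.0351). It also passed with the length trend removed, in the compared groups alone, without the filter and with a replicate block (-0.31 to -0.30, adjusted p of 0.0347 to 0.0489).

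Against Aucklandiae 500, which shares its library set and labelled dose, Polygalae 500 had 4 of the 10 genes higher and 0 lower, where 15.2% of all genes were called. CDK4 stood at 211, 213 and 213 CPM against 169, 177 and 168 CPM in Aucklandiae 500 (log2 difference 0.31 ± 0.055, adjusted p = 2.7e-05). MYC stood at 143, 160 and 160 CPM against 133, 132 and 141 CPM (0.20 ± 0.037, adjusted p = 6.16e-05). Neither pair of groups overlapped, which held for 32.4% of all tested genes. CDKN1B was higher by 0.17 ± 0.051 (adjusted p = 0.0145) and CCND3 by 0.096 ± 0.034 (adjusted p = 0.0430). The CDKN1B difference was lost without Polygalae 500 replicate 2 (0.14) or Aucklandiae 500 replicate 3 (0.15), at adjusted p of 0.102 and 0.0642. The CCND3 difference was lost without any 1 of 5 of the 6 libraries (0.084 to 0.11, adjusted p of 0.0606 to 0.159), Aucklandiae 500 replicate 3 being the exception. Both differences were also lost without the filter on low counts. Without Polygalae 500 replicate 2, 2 of the 10 genes were called in place of 4. CDK6 was lower in Polygalae 500 without the filter (-0.14, adjusted p = 0.0287) and without the Polygalae 20 libraries (-0.13, adjusted p = 0.0335).

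Over the 9 Polygalae libraries, 0 of the 10 genes had a slope over dose that edgeR called, where 5.67% of 15901 genes were called. An unadjusted p under 0.05 was reached by 3 genes, and DESeq2 called 1, MYC. The slope of MYC was 0.083 ± 0.025 log2 units per 5-fold dose step (adjusted p = 0.0714), and 0.11 without Polygalae 500 replicate 1 (adjusted p = 0.0379). CDK4 had a slope of 0.079 ± 0.036 (adjusted p = 0.234). With all 60 libraries in the fit, MYC (0.086), CDK4 (0.082), CCND3 (-0.048) and E2F1 (-0.077) were called, at adjusted p of 0.000540 to 0.0403. The slope of CCND3, -0.050 over the 9 libraries, was -0.14 between 100 and 500 µg/mL alone, without the Polygalae 20 libraries (adjusted p = 0.0175). Without Polygalae 20 replicate 1, 3 of the 10 genes were called: CDK4 rose by 0.13 per step (adjusted p = 9.83e-05), MYC rose by 0.088 (adjusted p = 0.00944) and CCND1 fell by 0.056 (adjusted p = 0.0424). The slope of CDK4 differed from that in Aucklandiae by 0.070 ± 0.041 (adjusted p = 0.393), and by 0.12 without Polygalae 20 replicate 1 (adjusted p = 0.00266). With all libraries, 0 of the 10 genes differed in slope between Polygalae and Aucklandiae, where 4.35% of 16360 genes did by edgeR. None of the 10 had an unadjusted p under 0.05 there, and DESeq2 called 0.

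**Figure D4:**
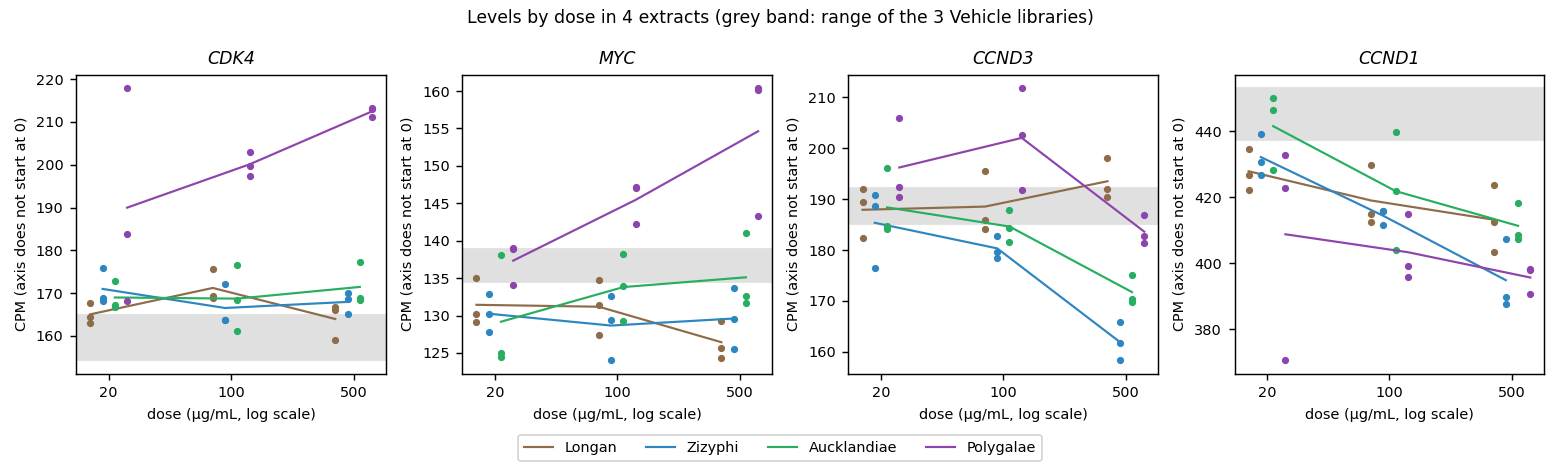
CPM (y axis, not from 0) of CDK4, MYC, CCND3 and CCND1 by labelled dose (x axis, log scale) in Longan, Zizyphi, Aucklandiae and Polygalae; points are libraries, shifted sideways by extract, lines join means of 3 and the grey band is the range of the 3 Vehicle libraries. The means of CDK4 and MYC are highest in Polygalae 500, the single highest CDK4 value, 218 CPM, is in Polygalae 20, and CCND3 is lowest in Zizyphi 500.

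CCND3 and CCND1 fell at the top dose of Zizyphi. Of the 10 genes, 2 fell at 500 µg/mL, where 1.81% of all genes were called, and 0 were called at 100 (0.599% of all genes) or 20 µg/mL (0.363%), where edgeR gave 2 genes and 1 gene an unadjusted p under 0.05 and DESeq2 called 0. CCND1 at 100 µg/mL was called in the compared groups alone (-0.10, adjusted p = 0.0266) and without the Polygalae 20 libraries (-0.10, adjusted p = 0.0400). CCND3 stood at 166, 162 and 158 CPM in Zizyphi 500, at 183, 180 and 179 CPM in Zizyphi 100 and at 189, 191 and 176 CPM in Zizyphi 20, against 185, 192 and 187 CPM in Vehicle. The top dose lay below all libraries of the other 2 doses. Its log2 fold change against Vehicle was -0.22 ± 0.034 (adjusted p = 6.42e-05). CCND1 stood at 407, 388 and 390 CPM in Zizyphi 500, below the lowest Vehicle value of 437 CPM (-0.17 ± 0.034, adjusted p = 0.00190). Over all tested genes, 22.7% did not overlap between Zizyphi 500 and Vehicle.

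The same 2 genes had called slopes within the 9 Zizyphi libraries, where 0.359% of 16142 genes did. CCND3 fell by 0.097 ± 0.017 log2 units per 5-fold step (adjusted p = 0.00203) and CCND1 fell by 0.065 ± 0.014 (adjusted p = 0.0191). Without Zizyphi 500 replicate 3 both calls were lost, at -0.085 for CCND3 (adjusted p = 0.0510) and -0.060 for CCND1 (adjusted p = 0.156). The CCND1 slope also missed the threshold without Zizyphi 20 replicate 1 (-0.059, adjusted p = 0.0634) or Zizyphi 500 replicate 2 (-0.058, adjusted p = 0.147), and with all 60 libraries in the fit.

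Longan, from the same library set, did not show the fall of CCND3. Its 3 doses called 0 of the 10 genes against Vehicle, where 0.104% of all genes were called at 500, 0.132% at 100 and 0.0173% at 20 µg/mL. By edgeR, 2, 1 and 0 genes had an unadjusted p under 0.05 at these doses, and DESeq2 called 0. In the compared groups alone, CCND1 (-0.11, adjusted p = 0.0107) and MYC were called at 500 and CDK4 at 100 µg/mL (0.10, adjusted p = 0.0382). CCND3 stood at 198, 192 and 190 CPM in Longan 500, and Zizyphi 500 was lower by 0.26 ± 0.034 log2 units (adjusted p = 5.34e-06), the 1 gene of 10 called where 0.213% of all genes were. The slope of CCND3 over dose also differed between the extracts, by -0.12 ± 0.022 per step (adjusted p = 0.00396). It was the 1 gene of 10 with a called difference, beside 0.121% of 16583 genes. CCND1 stood at 424, 412 and 403 CPM in Longan 500 and the difference between the extracts at that dose was not called (-0.066 ± 0.034, 95% interval -0.13 to 0.0023, adjusted p = 0.791). Within Longan, 0 of the 10 genes had a called slope in edgeR or DESeq2 (0.0186% of 16131 genes by edgeR), and 1 had an unadjusted p under 0.05.

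CCND3 and CCND1 also fell in Aucklandiae 500, 2 of 10 genes where 4.94% of all genes were called. CCND3 stood at 170, 170 and 175 CPM (log2 fold change -0.13 ± 0.034, adjusted p = 0.0111) and CCND1 at 407, 409 and 418 CPM (-0.11 ± 0.034, adjusted p = 0.0377), each below every Vehicle library. Over all tested genes, 28% did not overlap between Aucklandiae 500 and Vehicle. In the compared groups alone CDK4 was also called there (0.11, adjusted p = 0.0152). The CCND1 call was lost when any 1 of the 6 libraries was left out (-0.12 to -0.099, adjusted p of 0.0526 to 0.139), and also without the filter on low counts. The CCND3 call was lost without Aucklandiae 500 replicate 1 (-0.12) or 2 (-0.13) or Vehicle replicate 2 (-0.12), at adjusted p of 0.0522 to 0.0903. At 100 and 20 µg/mL, 0 of the 10 genes were called by edgeR or DESeq2, where 2.04% and 2.99% of all genes were by edgeR, and 1 and 2 genes had an unadjusted p under 0.05. The slope of CCND3 within Aucklandiae was -0.067 ± 0.016 per step (adjusted p = 0.0309), the 1 of 10 genes called where 1.10% of 15932 genes were. It was lost without Aucklandiae 20 replicate 3 (-0.056) or any 1 of the Aucklandiae 500 libraries (-0.070 to -0.061), at adjusted p of 0.0753 to 0.210. Whether the falls of Zizyphi and Aucklandiae differ in size was not tested, since the extracts lie in different library sets.

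In Liriopis and Schisandrae, 0 of the 10 genes were called at any dose. For Liriopis the background was 0.00576% of all genes at 500, 0.00576% at 100 and 0.0864% at 20 µg/mL. For Schisandrae it was 0.478%, 1.40% and 0.196%. In edgeR's test, an unadjusted p under 0.05 was reached by 1, 1 and 0 of the 10 genes in Liriopis 500, 100 and 20 and by 2, 1 and 2 in Schisandrae 500, 100 and 20, and DESeq2 called 0 in each. CDK6, for example, stood at 118, 127 and 108 CPM in Schisandrae 100 against 132, 128 and 137 CPM in Vehicle (-0.17 ± 0.061, adjusted p = 0.130). CDK6 passed there without Schisandrae 100 replicate 2, at -0.23 (adjusted p = 0.0430), without the filter (-0.17, adjusted p = 0.00448) and without the Polygalae 20 libraries (-0.17, adjusted p = 0.0137). With each library's exon length trend removed, 0 of the 10 genes were called in Schisandrae 100. Its replicates 1, 2 and 3 had exon length trends (Spearman rho) of -0.189, -0.0531 and -0.299. The part of that trend in the CDK6 values was not tested. In the compared groups alone CDK6 passed in Schisandrae 20 (-0.14, adjusted p = 0.0161) and CCND1 in Schisandrae 500 (-0.11, adjusted p = 0.0394). Schisandrae 500 differed from Liriopis 500 in 0 of the 10 genes (0.322% of all genes), with 3 at an unadjusted p under 0.05. Slopes within Liriopis (0.0314% of 15910 genes), within Schisandrae (0.0553% of 16279 genes) and between them (0.00604% of 16547 genes) called 0 of the 10. At an unadjusted p under 0.05 in edgeR's test these were 0, 3 and 1 genes, and DESeq2 called 0 in the comparison at 500 µg/mL and in each of these slopes.

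E2F1 was the 1 gene of the 10 called in no comparison in the fits used here as the main ones. Its log2 fold change against Vehicle ran from -0.12 ± 0.053 in Aucklandiae 500 (adjusted p = 0.187) to 0.099 ± 0.053 in Polygalae 20 (adjusted p = 0.229). In the compared groups alone E2F1 was called in Aucklandiae 500 (-0.12, adjusted p = 0.0474), and its Polygalae slope was called with all 60 libraries, as given above. Its highest value of the series, 57.7 CPM, again came from Polygalae 20 replicate 1, against a median of 47.7 CPM over the 60 libraries. E2F1 lies at chr20:33675683-33686404 on the minus strand, and the 250 bases before its RefSeq start, chr20:33686386-33686635, hold 2 matches to the E2F words TTTCCCGC, TTTGGCGC, TTTCGCGC or TTTGCCGC on either strand. They are at 33 and 20 bases before the start and are in capitals in the stretch shown, since E2F factors are known to act on this gene:
E2F1, chr20:33686394-33686423: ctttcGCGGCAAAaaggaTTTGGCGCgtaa
Of the 35116 windows, 2.79% hold at least 1 such word and 0.122% hold at least 2. The stretch overlaps annotated untranslated sequence of 1 GENCODE transcript. The table of RefSeq starts had entries for 6 of the 10 genes, and not for CCND1, CCNE2, CDK2 and MYC. Among the windows of CCND3, CDK6, CDKN1B and CCNE1 were matches to the GC box GGGCGG (held by 42.6% of windows), and none to the E2F words, CACGTG, the FOXO word GTAAACA (2.98% of windows) or the cyclic AMP element TGACGTCA (1.65% of windows).

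The genes around the switch were described by lists. Of 28 genes for RB, other E2F factors, CDK inhibitors and accessory kinase subunits, 24 were tested. Under Wortmannin 2 rose and 7 fell, with a median log2 fold change of -0.048 against 0.0079 over all genes, and that count is near the background of 37.4% of all genes. The cyclin A gene CCNA2 fell from 93.9 ± 2.7 to 60.5 ± 0.679 CPM (-0.63 ± 0.039) and CKS1B, a small CDK-binding subunit, from 138 ± 3.86 to 92.5 ± 3.72 CPM (-0.58 ± 0.065). MNAT1, an assembly factor of the CDK-activating kinase, fell by 0.25 ± 0.057. RBL2, the RB relative p130, rose by 0.21 ± 0.040, and TFDP2, a partner of E2F factors, by 0.11 ± 0.041. CCND2, the third D-type cyclin, and CCNA1, CDKN2A and CDKN2B did not pass the filter. CDKN2A, which A549 cells are known to have lost, had at most 1 count in any library.

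In Polygalae 500, 2 of the 24 genes rose and 3 fell (median -0.0085 against 0.00072 over all genes), also near the background of 19.9%. E2F6, a repressing E2F, rose by 0.24 ± 0.049 and RBL2 rose by 0.18 ± 0.041. The atypical repressor E2F8 fell from 18.3 ± 0.205 to 14.2 ± 1.23 CPM (-0.37 ± 0.079), and 2 CDK inhibitor genes fell, CDKN2C (-0.21 ± 0.066) and CDKN1A, which encodes p21 (-0.14 ± 0.044). Thus CDKN1B rose where CDKN2C and CDKN1A fell. In Aucklandiae 500, 2 of the 24 genes fell, E2F8 among them (-0.32 ± 0.076), and 0 rose, beside 4.94% of all genes called.

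Of 13 partners and relatives of MYC, 12 were tested. Under Wortmannin 2 rose and 1 fell, near the background of 37.4% of all genes. MXD4, which pairs with MAX to oppose MYC, rose from 23.5 ± 0.842 to 37.2 ± 0.468 CPM (0.66 ± 0.049). MLXIPL, a glucose-responsive factor, rose by 0.55 ± 0.17, and its partner MLX fell by 0.12 ± 0.040. In Polygalae 500, 2 rose and 2 fell, beside 19.9% of all genes. MAX, the partner of MYC, rose from 35.8 ± 0.683 to 41.0 ± 2.71 CPM (0.20 ± 0.053), MNT, a MAX-binding repressor, rose by 0.26 ± 0.065, and MXD4 (-0.21 ± 0.054) and MLXIP (-0.14 ± 0.042) fell. MXD4 thus moved in opposite directions in the 2 groups.

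Known E2F targets fell under Wortmannin in 10 of 14 genes and rose in 0, beside 37.4% of all genes called, with a median of -0.18 against 0.0079 over all genes. TOP2A, a DNA topoisomerase, fell from 1019 ± 27.7 to 714 ± 9.60 CPM (-0.51 ± 0.028), MYBL2 from 179 ± 3.16 to 137 ± 4.17 CPM (-0.38 ± 0.032) and TK1, a thymidine kinase, from 144 ± 2.17 to 115 ± 2.23 CPM (-0.33 ± 0.050). CCNE1 and CCNE2, which are also known E2F targets and are not in that list, rose in the same libraries. In Polygalae 500, 6 of the 14 fell and 0 rose, beside 19.9% of all genes (median -0.081 against 0.00072), among them the replication helicase subunit MCM5 (-0.19 ± 0.037) and TOP2A (-0.17 ± 0.028). Polygalae 500 was also lower than Aucklandiae 500 in 8 of the 14, and higher in 0, beside 15.2% of all genes.

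Known MYC targets fell under Wortmannin in 15 of 16 genes and rose in 0, beside 37.4% of all genes called. Their median was -0.35 against 0.0079 over all genes, and MYC itself had -0.071 ± 0.037. NME1, a nucleoside diphosphate kinase, fell from 269 ± 3.97 to 179 ± 6.25 CPM (-0.59 ± 0.053), the nucleolar NPM1 from 1940 ± 49.9 to 1337 ± 7.18 CPM (-0.54 ± 0.036) and ODC1, of polyamine synthesis, from 257 ± 6.41 to 192 ± 0.762 CPM (-0.42 ± 0.038). In Polygalae 500, where MYC and CDK4 rose, 6 of the 16 fell and 0 rose, beside 19.9% of all genes (median -0.069 against 0.00072): the largest falls were those of LDHA, lactate dehydrogenase (-0.30 ± 0.030), CAD, of pyrimidine synthesis (-0.21 ± 0.044), and SRM, spermidine synthase (-0.17 ± 0.043). Polygalae 500 and Aucklandiae 500 differed in 3 of the 16 genes, 1 higher and 2 lower, near the background of 15.2%. In Aucklandiae 500, 6 fell against Vehicle, beside 4.94% of all genes, where MYC had a log2 fold change of -0.019 ± 0.037. All these comparisons with Vehicle share its 3 libraries.

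**Figure D5:**
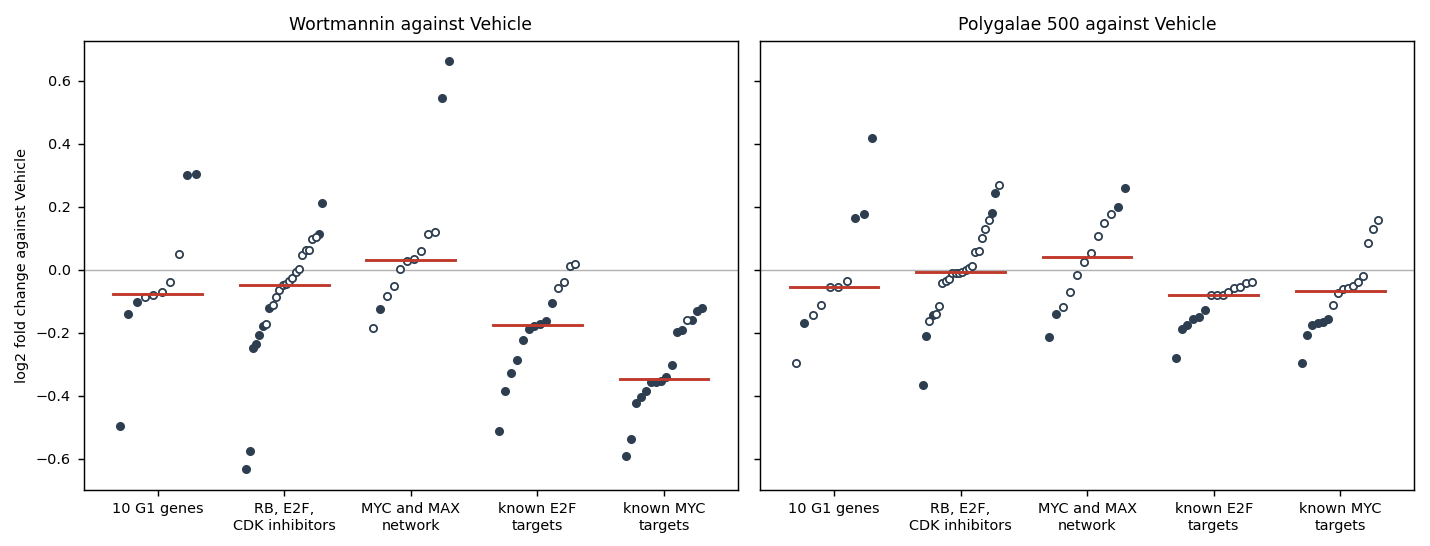
Log2 fold change against Vehicle (y axis) of the 10 genes and of the 4 lists (x axis) under Wortmannin (left) and in Polygalae 500 (right); each point is a gene, filled where adjusted p was under 0.05 in edgeR's test, and red lines are medians. Under Wortmannin the known MYC targets have a median of -0.35 and the known E2F targets of -0.18, while the 10 G1 genes spread from -0.49 to 0.30.

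Across the 20 group means of log2 CPM, the genes most like CDK4 were TMEM126B (Pearson r = 0.964), SNX8 (0.957) and ATP6V0B (0.954), and 55 genes had an r over 0.9. For CCND3 they were ATG16L1 (0.941), RARS1 (0.924) and PINX1 (0.919), with 9 genes over 0.9. CCNE1 was followed by GTF2IRD2B (0.903), and CCND1, CDK6, CCNE2, CDK2, CDKN1B, E2F1 and MYC had 0 genes over 0.9. The closest for those 7 genes were JARID2 for CCND1 (0.802), TJP1 for CDK6 (0.891), MEIS2 for CCNE2 (0.895), DPAGT1 for CDK2 (0.783), FTH1 for CDKN1B (0.847), DEAF1 for E2F1 (0.777) and SCAMP3 for MYC (0.876). Among the 10 themselves, CCNE1 and CCNE2 were the most alike (0.753), and CDK4 and CCNE2 the most opposed (-0.694). These values describe 20 group means that share library sets and the length trend, and Wortmannin and the Polygalae groups carry much of the range.

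On GRCh38 with GENCODE release 29, CCND1 lies at chr11:69641087-69654474, CCND3 at chr6:41934933-42050357, CDK6 at chr7:92604921-92836594, CCNE1 at chr19:29811898-29824308, CCNE2 at chr8:94879770-94896678, CDK2 at chr12:55966769-55972784, CDKN1B at chr12:12715058-12722371 and MYC at chr8:127735434-127741434. The library kit keeps strand, but the strand setting of the counting was not given, and overlapping genes on the other strand may therefore bear on some values. CDK4 shares 2485 bases with TSPAN31, a gene on the opposite strand with a mean of 15.3 CPM whose log2 fold change was 0.33 under Wortmannin, where CDK4 fell, and 0.17 in Polygalae 500. CCNE2 overlaps INTS8 on the opposite strand, which has a mean of 56.1 CPM, above that of CCNE2, and which had a log2 fold change of -0.19 under Wortmannin, where CCNE2 rose. CCND1 overlaps LTO1 (21.7 CPM, -0.21 under Wortmannin). The part of these overlaps in the values of the 10 genes was not tested.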

How the data were processed

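Total RNA of 60 A549 samples was sequenced as stranded mRNA libraries with 100-base paired reads, per the labels' protocols. The deposited values are expected counts per gene from the authors, who used FastQC 0.11.9, Trim Galore 0.6.5, STAR 2.7.3a and RSEM 1.3.3 on GRCh38, per the submitters' processing notes. Annotation release and strand setting: not given in the sources used here. Counts were rounded (10.7% were not whole). Genes were filtered with filterByExpr, scaled by TMM and tested in edgeR 4.0.16 (R 4.3.3) with quasi-likelihood fits over all 60 libraries, 1 mean per group. Dose slopes used the 9 libraries of an extract, with 20, 100 and 500 µg/mL as equal steps, and slope differences the 18 libraries of a set. An adjusted p under 0.05 was a call. Errors of fold changes are standard errors from the fit, and errors of levels are SDs. Replicates differed by more than sampling noise (chi-square per degree of freedom 2.03 to 25.3). RNA of fewer cells and less RNA per cell cannot be told apart in bulk libraries. Alternatives were no filter, RLE in place of TMM factors in edgeR, DESeq2 1.42.0 with its own size factors, the compared groups alone or all 60 libraries, a replicate block, leaving out libraries and, added after seeing the data, removing each library's exon length trend. That removal was not run for differences of slopes. The analysis was tested on simulated counts. Genes named are the 10, up to 3 risen and 3 fallen of each list in Wortmannin and Polygalae 500 by size of change, and, of the 3 most like each of the 10, all for CDK4 and CCND3 and the first for the others. A gene that this rule names is not reported here. The 10 genes and the lists were chosen with earlier results of these data known. Symbols and positions came from the gene table and GENCODE release 29, and promoter stretches from RefSeq on GRCh38.p14.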

Additional observations from a re-analysis of the deposited data

Results flagged for a closer look

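The slope of CCND3 over dose differed between Zizyphi and Longan by -0.12 ± 0.022 log2 units per 5-fold step (adjusted p = 0.00396 in edgeR's interaction test over the 18 libraries of the set), and it was called in all 22 alternatives run. Removal of the exon length trend was not among these alternatives. CCND3 fell with dose in Zizyphi (-0.097 ± 0.017 per step) and had a slope of 0.022 ± 0.013 in Longan. This was the 1 of 30 tested differences in slope, 10 genes in each of 3 pairs of extracts, that passed.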

How the results depend on the processing

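Of 30 called pairs of gene and comparison, 13 were called under every alternative run: CCND1 in Zizyphi 500 and Polygalae 500 and 100; CCND3 under Wortmannin, in Zizyphi 500, in Zizyphi 500 against Longan 500 and in the difference of those slopes; CCNE1 under Wortmannin; CDK4 in Polygalae 500 and 100 and against Aucklandiae 500; and MYC in Polygalae 500 against Vehicle and against Aucklandiae 500. Over 402 alternatives to these 30 values, 340 kept the call, 62 lost it and 0 changed sign. Counts of the 10 genes called moved as follows, and the cause was not tested. Without the filter, the 3 Schisandrae doses gave 1 in place of 0 and the 3 Aucklandiae doses 1 in place of 2. Without the Polygalae 20 libraries, Schisandrae gave 2 and the Polygalae slope 1 in place of 0; no value for Polygalae 20 itself exists there. In fits to the compared groups alone, Schisandrae gave 2, Longan 3 in place of 0 and Aucklandiae 4. With all 60 libraries in the fit, the Zizyphi slope gave 1 in place of 2 and the Polygalae slope 4. The Polygalae slope gave 1 with the length trend removed and 1 in DESeq2. Leaving out 1 library at a time gave 3 to 5 for Wortmannin, 2 to 5 for Polygalae 100, 0 to 3 for Polygalae 20, 0 to 1 for Schisandrae, 0 to 2 for Aucklandiae, 0 to 2 for the Zizyphi slope, 0 to 3 for the Polygalae slope, 0 to 1 for the Aucklandiae slope and 2 to 4 for Polygalae 500 against Aucklandiae 500. Counts over all genes moved by over 1.5 times in 91 of 202 such alternatives, most of them from low counts. In the compared groups alone they were 3 for Polygalae 20 (2107 in the fit to all 60 libraries), 992 for Zizyphi 500 (315) and 1840 for Aucklandiae 500 (858). The Polygalae slope had 2991 with all 60 libraries and 454 without Polygalae 20 (901). Same-numbered replicates did not deviate together (correlations of -0.0548 to 0.0904, and each library was closest to its own number in 1 of 22 comparisons). With a replicate block, Wortmannin gave 5 and CCNE2 in Polygalae 500 was called (-0.30, adjusted p = 0.0408). Depth limits CCNE2 most, at 5.41 to 11.3 CPM.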
